A study of Mus musculus with 18 samples.

Results

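The classical adipokine genes are Adipoq, Cfd, Retn, Lep, Rarres2, Rbp4, Nampt and Apln. They were taken by gene symbol, whatever their values, and all 8 were found among the 20295 genes of the count table. After a filter on low counts 7 of the 8 were tested, among 12156 genes in all, and Lep was not. Their mRNA levels are described here in brown adipocytes in which lipolysis was switched on or blocked.

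Adipokines are proteins that fat cells release into the blood or the surrounding tissue. Adiponectin (Adipoq) and adipsin (Cfd, complement factor D) are among the most abundant transcripts of a mature adipocyte, leptin (Lep) is made mainly by white fat and signals energy stores to the brain, and resistin (Retn) is made by mouse adipocytes. Retinol-binding protein 4 (Rbp4) carries vitamin A, chemerin (Rarres2) attracts immune cells, apelin (Apln) acts on vessels through a G protein-coupled receptor, and Nampt is both a released protein, visfatin, and the intracellular enzyme that limits NAD salvage. In brown fat, β-adrenergic signals raise cAMP, activate the lipases ATGL and HSL and so free fatty acids from triglyceride.

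RNA-seq was done on wild-type (WT) BAT-LgT cells, a single line of mouse brown preadipocytes immortalised with SV40 large T antigen, which all samples share. The cells had been differentiated with dexamethasone, 3-isobutyl-1-methylxanthine, T3 and insulin and were used as brown adipocytes at day 7. Each of the 6 groups held 3 samples: Vehicle (DMSO), ISO (the β-adrenergic agonist isoproterenol, 100 nM), SR-3420 (a ligand of ABHD5 that activates ATGL with no β-adrenergic signal), and each of these again after lipase inhibitors, named Lipase Inh. + SR-3420, Lipase Inh. + ISO and, for the unstimulated cells, Lipase Inh. + Vehicle. The inhibitors of ATGL and HSL were given for 1 h, and stimulation lasted 3 h. The labels give 10 µM for SR-3420, the text of the study gives another dose, and which was used was not settled. The study speaks of independent experiments, so p-values measure the spread between experiments on 1 line.

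Total counts lay between 10310447 and 21205032 in 17 libraries. Lipase Inh. + SR-3420 replicate 2 stood apart with 4263755 counts, of which the gene Lars2 took 18.3%, against 0.0397% to 0.121% elsewhere, and tests of adipokine genes that use its group are also given without it. Levels are CPM, read counts scaled to a common library size with TMM factors, which hold most genes level between samples. Scaling by total counts instead shifted the median log2 fold change of all genes by -0.31 for ISO against Vehicle, by -0.16 for SR-3420 against Vehicle and by -0.23 for Lipase Inh. + ISO against Lipase Inh. + Vehicle, and changes below are relative to the TMM reference. The 10 adipocyte markers were all tested, and their summed level was 15352 to 17320.1 CPM in Vehicle, 21607 to 22952 in ISO and 14726 to 15196 in SR-3420, the last wholly below Vehicle. With the inhibitors it was 15379 to 15978 CPM for Vehicle, 28065 to 31064 for ISO and 16601 to 19339 for SR-3420. Such a sum is set mainly by the most abundant markers, so it does not describe the 10 as a set. Taken gene by gene, their median change against Vehicle was upward for SR-3420 (0.34 on the log2 scale) and for ISO (0.43). With SR-3420, 5 of the 10 markers rose and 3 fell, namely Pparg (-0.83), Lpl (-0.37) and Adrb3 (-1.39 on the log2 scale), and with ISO 6 rose and 1, Adrb3 (-1.60), fell. Of all genes tested, 26.0% were higher and 25.4% lower with SR-3420, and 26.8% and 25.0% with ISO. Under total-count scaling the ISO calls of Cidec and Fabp4 were lost (edgeR adjusted p = 0.103 and 0.172). The part of these markers in the adipokine results was not tested. Ucp1, the uncoupling protein that defines stimulated brown fat, stood at 2.69 CPM in Vehicle and 364 CPM in ISO. Of other cell types, the 5 macrophage markers summed to 1.96 to 6.30 CPM with Ptprc at 0 counts in every library, the 4 endothelial markers to 0 to 0.631 CPM, and the 5 preadipocyte markers to 31.5 to 55.98 CPM. The preadipocyte sum was 32.7 to 40.8 CPM in Vehicle, 44.9 to 55.98 in ISO and 45.6 to 46.7 in SR-3420, and its part in the results was not tested. In bulk RNA, fewer cells of a type and less RNA per cell cannot be told apart.

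Between genes, levels were compared per kilobase of counted transcript (RPKM, from the TMM-scaled counts). In Vehicle, Cfd ranked 3 among all genes at 3329 ± 671 RPKM (SD, n = 3) and Adipoq ranked 4 at 2917 ± 322 RPKM. Rarres2 followed at 260.4 ± 26.4 RPKM and Nampt at 92.4 ± 5.29 RPKM. Retn (51.6 ± 10.7 RPKM) and Apln (46.4 ± 1.19 RPKM) did not differ beyond their spread, and Rbp4 was lower at 29.5 ± 9.47 RPKM. Lep lay far below all of them at 0.110 ± 0.0731 RPKM. In all 18 samples, Adipoq and Cfd together gave 84.3% to 91.3% of the counts of the 8 genes.

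**Figure D1:**
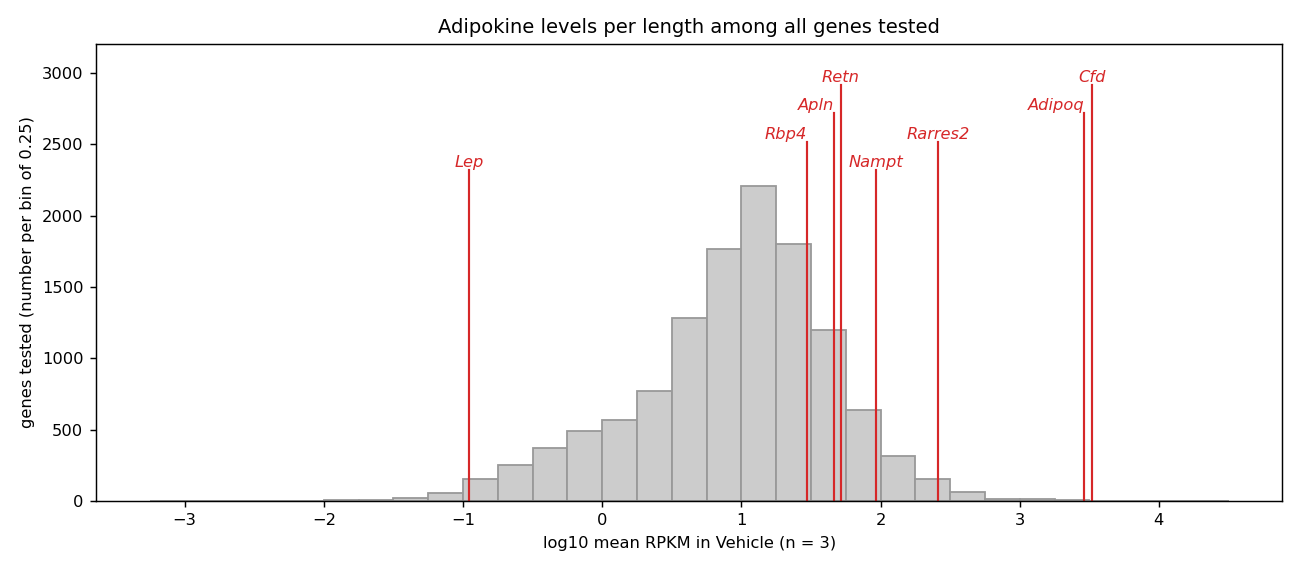
Mean RPKM of each adipokine gene in Vehicle (red lines, log10 scale, n = 3) over the histogram of the 12156 genes tested (grey, genes per bin of 0.25). Cfd and Adipoq sit at the right edge near log10 RPKM of 3.5, and the other tested adipokines lie in the upper part of the distribution. Lep, which did not pass the filter, lies at its lower end.

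The 8 genes lie on mm9 chromosomes 6, 8, 10, 12, 16, 19 and X, and only Lep and Rarres2 share a chromosome. Adipoq spans chr16:23146609-23158041 on the plus strand, Cfd chr10:79353598-79355405 (plus), Retn chr8:3655770-3659818 (plus), Lep chr6:29010221-29023876 (plus), Nampt chr12:33505200-33538234 (plus), Apln chrX:45378323-45388029 (minus), Rbp4 chr19:38191110-38199811 (minus) and Rarres2 chr6:48519697-48522669 (minus). Rarres2 overlaps Lrrc61, on the opposite strand, over 1025 bases. The sources do not say whether counting used strand, so reads of Rarres2 (mean 95.5 CPM) and Lrrc61 (57.6 CPM) in the overlap cannot be told apart and Rarres2 values are uncertain.

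Promoter sequence is shown for the 4 genes whose responses set the pattern: Apln and Rbp4, which were both higher with ISO, Nampt, which moved the opposite way under the inhibitors, and Adipoq, the most abundant gene by CPM among the 8. Each line is the 250 bases before the start of the gene in the count table, from the mm9 assembly (NCBIM37), 5′ to 3′ on the strand of the gene, at chrX:45388030-45388279 (minus) for Apln, chr19:38199812-38200061 (minus) for Rbp4, chr12:33504950-33505199 (plus) for Nampt and chr16:23146359-23146608 (plus) for Adipoq. Capitals mark matches to the motifs searched.
Apln: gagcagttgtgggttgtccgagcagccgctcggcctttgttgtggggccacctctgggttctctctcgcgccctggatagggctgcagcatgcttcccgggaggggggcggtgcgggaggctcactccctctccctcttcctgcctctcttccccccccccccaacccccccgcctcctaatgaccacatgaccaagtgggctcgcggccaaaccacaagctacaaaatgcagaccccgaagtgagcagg
Rbp4: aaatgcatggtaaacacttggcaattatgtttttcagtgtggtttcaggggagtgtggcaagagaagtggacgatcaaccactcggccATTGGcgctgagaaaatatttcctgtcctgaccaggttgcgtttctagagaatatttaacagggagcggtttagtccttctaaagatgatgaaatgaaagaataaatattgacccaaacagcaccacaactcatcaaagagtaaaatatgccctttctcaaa
Nampt: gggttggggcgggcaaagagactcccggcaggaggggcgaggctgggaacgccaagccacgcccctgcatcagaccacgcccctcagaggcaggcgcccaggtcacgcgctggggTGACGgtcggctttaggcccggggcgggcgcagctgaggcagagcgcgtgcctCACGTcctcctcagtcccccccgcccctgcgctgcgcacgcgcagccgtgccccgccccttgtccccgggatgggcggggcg
Adipoq: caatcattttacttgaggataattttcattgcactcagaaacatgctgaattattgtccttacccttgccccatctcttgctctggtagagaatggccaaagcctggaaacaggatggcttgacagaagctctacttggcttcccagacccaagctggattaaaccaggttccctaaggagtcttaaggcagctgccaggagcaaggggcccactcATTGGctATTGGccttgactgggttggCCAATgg

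The motifs were searched on both strands. They were the cAMP response element (TGACGTCA, in 2.84% of the windows of all 12156 tested genes) and the TGACG half-site within it (27.3%), the E-box CACGTG (8.37%) and the hypoxia response core ACGTG within it (21.9%), the direct repeat 1 element bound by PPAR and RXR (0.0411%), AAAGGTCA (0.691%), the CCAAT box (36.5%) and TATAAA (6.27%). The Nampt window held TGACG from 135 to 131 bases before the start and ACGTG, on the other strand, from 82 to 78. Its share of G and C was 75.6%, against 65.2% for Apln, 48.8% for Adipoq and 40.8% for Rbp4. In Rbp4, CCAAT stood on the other strand at 162 to 158 bases. Adipoq held CCAAT 3 times within its last 34 bases, and Apln held none of the motifs. Among the windows not shown, Rarres2 held ACGTG on the other strand at 224 to 220 bases and Cfd, Retn and Lep held none. These matches describe the letters only.

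To ask how adipokine mRNAs respond to either stimulus, ISO and SR-3420 were each compared with Vehicle (edgeR quasi-likelihood test, Benjamini-Hochberg adjusted over all genes tested, changed at an adjusted p of at most 0.05). ISO raises cAMP as well as lipolysis, so its comparison with Vehicle does not isolate lipolysis. With SR-3420, 6 of the 7 tested genes changed, 5 of them down (Adipoq, Cfd, Retn, Rarres2 and Apln) and 1 up (Nampt), where 51.4% of all tested genes changed, 25.4% down and 26.0% up. With ISO, 3 of the 7 changed, Rbp4 and Apln up and Cfd down, where 51.8% of all genes did, 26.8% up and 25.0% down. The median log2 fold change over the 7 was -0.47 with SR-3420 (all genes -0.02) and 0.06 with ISO (all genes -0.02). No adipokine gene also reached an absolute log2 fold change of 1 in either comparison, which 6.33% of all genes did with SR-3420 and 9.11% with ISO. Under total-count scaling the split with ISO became 2 up and 4 down (all genes 12.3% up and 49.4% down), and with SR-3420 0 up and 5 down (all genes 16% and 35.9%). Both comparisons share the Vehicle samples.

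Tested directly against each other, 6 of the 7 genes were higher with ISO than with SR-3420 and Nampt did not pass the test, where 29.7% of all genes differed, 15.8% higher with ISO and 13.9% lower. Under total-count scaling 4 were higher and 1 lower (all genes 6.38% and 25.0%). Apln differed most, at a log2 difference of 1.16 ± 0.08 (SE, edgeR adjusted p = 3.27e-10), followed by Rbp4 at 0.80 ± 0.17 (adjusted p = 0.0015), Retn at 0.70 ± 0.13 (0.000282), Adipoq at 0.44 ± 0.08 (0.000260), Cfd at 0.35 ± 0.11 (0.0222) and Rarres2 at 0.30 ± 0.09 (0.0166). Nampt gave -0.15 ± 0.08 (0.145). Under total-count scaling Cfd and Rarres2 were no longer called (both 0.231) and Nampt was, as lower with ISO (-0.30, adjusted p = 0.0211). The calls of Cfd and Rarres2 were also lost without single samples: Cfd without ISO replicate 3 (0.0828) or SR-3420 replicate 1 (0.0949), and Rarres2 without ISO replicate 1 (0.0733) or SR-3420 replicate 1 (0.0667).

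The lipase inhibitors alone were compared with Vehicle to see the effect of basal lipolysis. Apln was the only one of the 7 genes to change, where 0.913% of all tested genes did, 0.485% up and 0.428% down. Whether a response needed the lipases was asked by the interaction, which subtracts the log2 fold change in uninhibited cells from that in inhibited cells. Of the ISO effects, 3 of 7 differed with the inhibitors (Apln and Cfd upward, Nampt downward), where 31.4% of all genes did, 14.9% upward and 16.6% downward. Of the SR-3420 effects, 4 of 7 differed, all upward (Adipoq, Cfd, Retn and Apln), where 27.3% of all genes did, 12.5% upward and 14.8% downward. Within inhibitor-treated cells, 4 of 7 changed with ISO, Apln and Rbp4 up and Nampt and Retn down (all genes 57.7%, 29.4% up and 28.3% down), and 1 of 7, Apln, changed with SR-3420 (all genes 4.34%, 2.99% up and 1.36% down). The size threshold, 1 on the log2 scale, was passed as well by Apln and Rbp4 with ISO in inhibitor-treated cells (13.1% of all genes), by Apln in the ISO interaction (6.89%) and by Apln between ISO and SR-3420 (2.04%). None of the 7 passed it with the inhibitors alone (0.0494%), with SR-3420 in inhibitor-treated cells (0.296%) or in the SR-3420 interaction (3.82%). These comparisons share the Lipase Inh. + Vehicle samples, and the interactions share Vehicle as well.

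**Figure D2:**
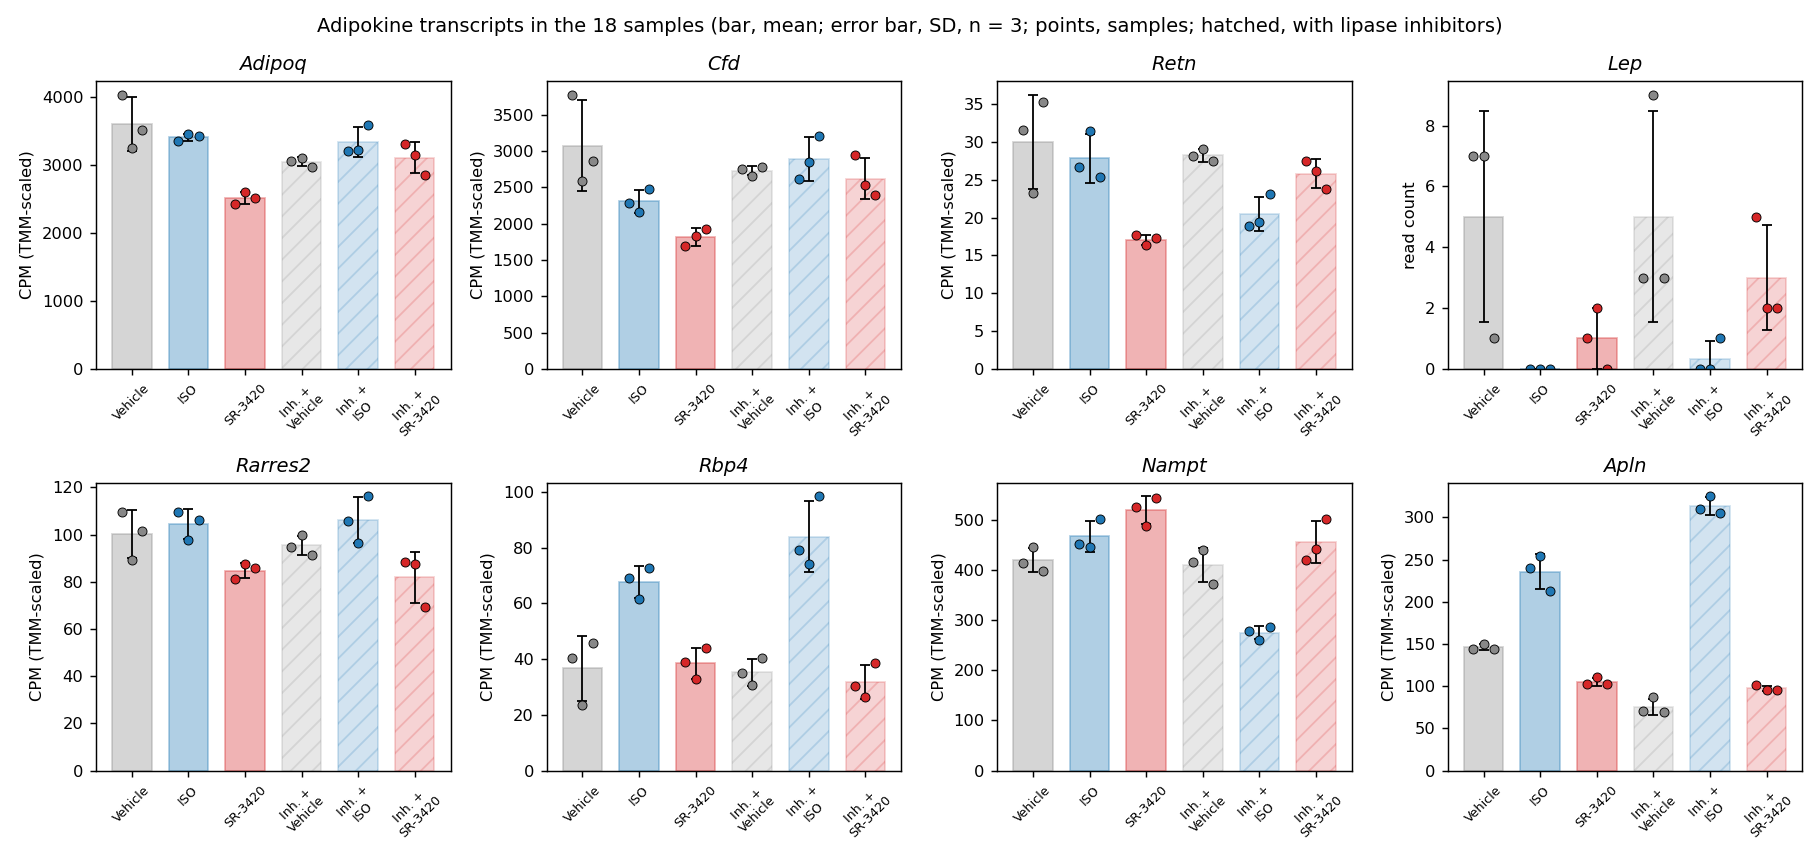
Level of each adipokine gene in the 6 groups (CPM after TMM scaling, read counts for Lep; bars, mean; error bars, SD, n = 3; points, samples; hatched, with lipase inhibitors). SR-3420 samples are the lowest for Adipoq (2415 to 2601 CPM) and Cfd, Lipase Inh. + ISO samples are the highest for Apln (305 to 325 CPM) and the lowest for Nampt (261 to 286 CPM), and Lep is at 0 to 9 counts throughout.

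Adipoq, the hormone that raises insulin sensitivity, was lower with SR-3420 than in every other group. It stood at 4026, 3248 and 3507 CPM in Vehicle (replicates 1 to 3 here and below), at 3349, 3450.0 and 3413 in ISO and at 2415, 2601 and 2508 in SR-3420. With the inhibitors it stood at 3050.4, 3099 and 2968 CPM in Lipase Inh. + Vehicle, at 3197, 3212 and 3583 in Lipase Inh. + ISO and at 3309.5, 3147 and 2854 in Lipase Inh. + SR-3420. All 3 SR-3420 samples lay below the other 15, and the other groups overlapped their neighbours in the order of levels. Lipase Inh. + Vehicle, not a neighbour of Vehicle in that order, lay wholly below it, at -0.24 ± 0.08 (SE, edgeR adjusted p = 0.201). SR-3420 lowered Adipoq 1.43-fold against Vehicle (log2 fold change -0.52 ± 0.08 SE, edgeR adjusted p = 1.35e-05), whereas ISO gave -0.08 ± 0.08 (adjusted p = 0.428). With the inhibitors the SR-3420 value was 0.03 ± 0.08 (adjusted p = 0.899; 0.02 without Lipase Inh. + SR-3420 replicate 2), a difference of 0.55 ± 0.11 from that without (adjusted p = 0.000922). Without Lipase Inh. + SR-3420 replicate 2 that difference was 0.54 (adjusted p = 0.0017). Total-count scaling gave -0.38 for ISO (adjusted p = 0.0015), so whether Adipoq counts as changed with ISO depends on the scaling.

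Cfd, the serine protease that starts the alternative complement pathway, was lower with both stimuli. Its levels were 3776, 2593 and 2860.5 CPM in Vehicle, 2279.9, 2168 and 2483 in ISO and 1691, 1826 and 1929.6 in SR-3420. After the inhibitors they were 2749, 2657 and 2778 CPM in Lipase Inh. + Vehicle, 2617, 2848 and 3209.7 in Lipase Inh. + ISO and 2939, 2532 and 2389 in Lipase Inh. + SR-3420. The SR-3420, ISO and Vehicle samples did not overlap, while the 3 inhibitor-treated groups did. Cfd fell by 0.41 on the log2 scale with ISO (SE 0.11, edgeR adjusted p = 0.0035) and by 0.76 with SR-3420 (SE 0.11, adjusted p = 7.68e-06), a 1.33-fold and a 1.69-fold lower level. In inhibitor-treated cells the values were 0.08 ± 0.11 with ISO (adjusted p = 0.537) and -0.06 ± 0.11 with SR-3420 (adjusted p = 0.858; -0.0343 without Lipase Inh. + SR-3420 replicate 2). Interactions came to 0.50 ± 0.16 for ISO (adjusted p = 0.0189) and 0.70 ± 0.16 for SR-3420 (adjusted p = 0.0020). The former was no longer called without Vehicle replicate 1, the highest Cfd sample (0.32, adjusted p = 0.0732), or without Lipase Inh. + ISO replicate 3 (0.42, adjusted p = 0.0598). The latter was 0.73 without Lipase Inh. + SR-3420 replicate 2 (adjusted p = 0.0028).

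Retn, the cysteine-rich hormone resistin, was far less abundant than Adipoq and was low in 2 of the 6 groups. Vehicle samples held 31.6, 23.2 and 35.3 CPM, ISO samples 26.6, 31.5 and 25.3 and SR-3420 samples 17.6, 16.3 and 17.2. Levels with the inhibitors were 28.1, 29.1 and 27.4 CPM in Lipase Inh. + Vehicle, 18.9, 19.4 and 23.1 in Lipase Inh. + ISO and 27.5, 26.1 and 23.7 in Lipase Inh. + SR-3420. Thus SR-3420 and Lipase Inh. + ISO were the low groups, and neither overlapped its Vehicle group. SR-3420 lowered Retn 1.76-fold (-0.81 ± 0.13, edgeR adjusted p = 1.68e-05), and with the inhibitors the value was -0.14 ± 0.13 (adjusted p = 0.668; -0.14 without Lipase Inh. + SR-3420 replicate 2), a difference of 0.68 ± 0.18 (adjusted p = 0.0076). Without Lipase Inh. + SR-3420 replicate 2 the difference was 0.67 (adjusted p = 0.0140). ISO showed the opposite order, with -0.11 ± 0.12 alone (adjusted p = 0.494) and a fall of 0.45 with the inhibitors (SE 0.13, adjusted p = 0.0040), but the difference between these ISO effects was not past the threshold (-0.35 ± 0.18, adjusted p = 0.144). It was past it without Vehicle replicate 3 (-0.47, adjusted p = 0.0403). Total-count scaling gave a called value of -0.41 for ISO alone (adjusted p = 0.0072).

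Rarres2 varied least among the tested genes, with a highest group mean 1.30-fold above the lowest. It stood at 109.6, 89.4 and 102 CPM in Vehicle, at 109.7, 97.6 and 106 in ISO and at 81.2, 87.3 and 85.8 in SR-3420. The inhibitor-treated samples held 94.8, 99.9 and 91.5 CPM with Vehicle, 106, 96.5 and 116 with ISO and 88.6, 87.7 and 69.5 with SR-3420. The SR-3420 samples all lay below those of Vehicle, at -0.24 ± 0.09 (edgeR adjusted p = 0.0319). This call was lost without Vehicle replicate 1 (adjusted p = 0.167) or 3 (0.0669) and without SR-3420 replicate 1 (0.107) or 3 (0.0608). With ISO the value was 0.06 ± 0.09 (adjusted p = 0.608), which became -0.25 under total-count scaling (adjusted p = 0.0321). The difference of the SR-3420 effects with and without the inhibitors was 0.01 with a 95% interval from -0.28 to 0.30, and -0.0327 without Lipase Inh. + SR-3420 replicate 2.

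Lep was near the detection limit. The 3 Vehicle libraries held 7, 7 and 1 counts, the ISO libraries 0, 0 and 0, and the SR-3420 libraries 1, 2 and 0. After the inhibitors the counts were 3, 9 and 3 with Vehicle, 0, 0 and 1 with ISO and 5, 2 and 2 with SR-3420. Altogether 43 Lep counts were found in 18 libraries. A count of 0 allows up to 3, which is 0.208 to 0.315 CPM in the ISO and Lipase Inh. + ISO libraries that held 0. Only Vehicle replicates 1 and 2, Lipase Inh. + Vehicle replicate 2 and Lipase Inh. + SR-3420 replicate 1 exceeded 3 counts. Lep did not pass the filter and is described by its counts, with no fold. They summed to 15 in Vehicle, 0 in ISO and 3 in SR-3420, and with the inhibitors to 15, 1 and 9. With no filter, edgeR gave adjusted p = 0.0058 for ISO and 0.0745 for SR-3420, each against Vehicle. For Lipase Inh. + ISO against Lipase Inh. + Vehicle it gave adjusted p = 0.0173. These values rest on the few counts above.

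Rbp4 had the largest rise of the 7 genes with ISO alone. Its levels were 40.6, 23.4 and 46.0 CPM in Vehicle, 68.97, 61.5 and 72.6 in ISO and 39.1, 32.7 and 43.9 in SR-3420. With the inhibitors they were 34.9, 30.7 and 40.3 CPM for Vehicle, 79.3, 74.1 and 98.4 for ISO and 30.5, 26.4 and 38.5 for SR-3420. Every ISO-treated sample, with or without the inhibitors, lay above the 12 others, and those 12 overlapped. ISO raised Rbp4 1.85-fold alone (0.89 ± 0.18, edgeR adjusted p = 0.000236) and 2.38-fold in inhibitor-treated cells (1.25 ± 0.17, adjusted p = 2.54e-06). The difference between these effects, 0.36 ± 0.25, was not past the threshold (adjusted p = 0.281, 95% interval from -0.17 to 0.90), except without Vehicle replicate 2, the lowest Rbp4 sample (0.60, adjusted p = 0.0269). SR-3420 gave 0.08 ± 0.18 against Vehicle (adjusted p = 0.731, 95% interval from -0.31 to 0.47), with the opposite sign under total-count scaling.

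Apln had the widest range of the 7 genes, 4.14-fold between its highest and its lowest group mean, and no 2 neighbouring groups overlapped in the order of their levels. Vehicle samples stood at 144, 150.5 and 144 CPM, ISO samples at 241, 254 and 213 and SR-3420 samples at 103, 111 and 103. The inhibitors alone gave 70.5, 86.8 and 69.7 CPM, Lipase Inh. + ISO 310.2, 325 and 305, and Lipase Inh. + SR-3420 101, 95.7 and 95.5. The order from high to low was therefore Lipase Inh. + ISO, ISO, Vehicle, SR-3420, Lipase Inh. + SR-3420 and Lipase Inh. + Vehicle.

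The inhibitors alone lowered Apln 1.93-fold (-0.95 ± 0.08, edgeR adjusted p = 1.495e-07). ISO raised it 1.61-fold without inhibitors (0.69 ± 0.08, adjusted p = 1.41e-07) and 4.15-fold with them (2.05 ± 0.08, adjusted p = 5.24e-15). This interaction of 1.36 ± 0.11 (adjusted p = 3.80e-09) has 2 sides in the levels: the starting level was lower in Lipase Inh. + Vehicle and the level reached was higher in Lipase Inh. + ISO. SR-3420 moved Apln in opposite directions, down without inhibitors (-0.47 ± 0.08, adjusted p = 3.16e-05) and up with them (0.37 ± 0.08, adjusted p = 0.0092), a difference of 0.84 ± 0.11 (adjusted p = 1.05e-05). Without Lipase Inh. + SR-3420 replicate 2 the difference was 0.85 (adjusted p = 3.14e-05) and the rise with inhibitors 0.38 (adjusted p = 0.0219). The rise with SR-3420 in inhibitor-treated cells was no longer called under total-count scaling (adjusted p = 0.155), in a fit to the compared groups alone (0.0584), or without Lipase Inh. + Vehicle replicate 1 (0.0704) or 3 (0.0591).

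Nampt, the enzyme that makes nicotinamide mononucleotide, moved up with SR-3420 and down with ISO once the lipases were inhibited. Levels were 414, 446 and 399 CPM in Vehicle, 453, 447 and 503 in ISO and 525, 489 and 543 in SR-3420. They were 416, 440.0 and 373 CPM in Lipase Inh. + Vehicle, 278, 261 and 286 in Lipase Inh. + ISO and 421, 443 and 502 in Lipase Inh. + SR-3420. The 3 Lipase Inh. + ISO samples lay below all 15 others. Against Vehicle, Nampt was 1.24-fold higher with SR-3420 (0.31 ± 0.08, edgeR adjusted p = 0.0023; 0.15, adjusted p = 0.214 under total-count scaling). ISO alone gave 0.15 ± 0.08 (adjusted p = 0.10), a value that became -0.15 under total-count scaling, and with the inhibitors ISO lowered Nampt 1.49-fold (-0.57 ± 0.08, adjusted p = 1.79e-06). The interaction was -0.73 ± 0.11 (adjusted p = 2.39e-05). For SR-3420 the corresponding difference was -0.15 ± 0.11 (adjusted p = 0.323), or -0.13 without Lipase Inh. + SR-3420 replicate 2 (adjusted p = 0.441).

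**Figure D3:**
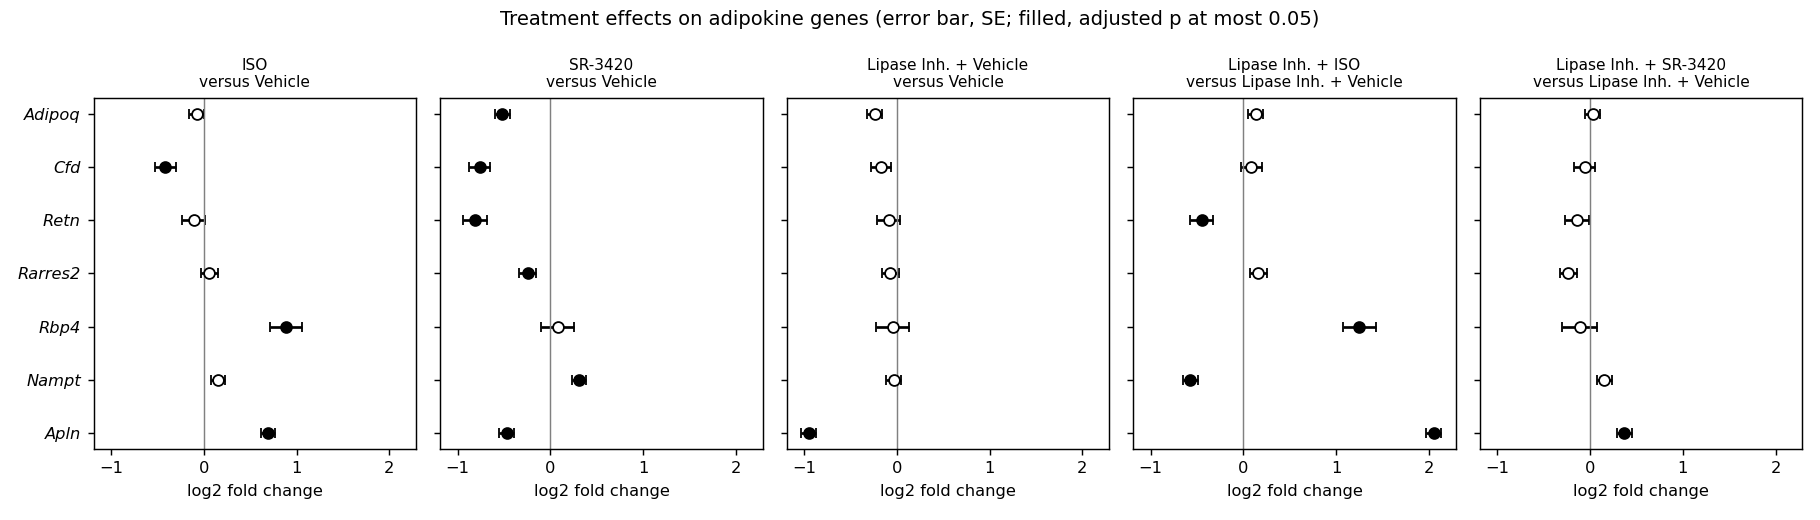
Log2 fold changes of the 7 tested adipokine genes (points; error bars, SE; filled, adjusted p at most 0.05) in 5 comparisons with 3 samples per group. SR-3420 alone moved 5 genes to the left, the inhibitors alone moved only Apln (-0.95), and with the inhibitors ISO moved Apln (2.05) and Rbp4 (1.25) furthest to the right.

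**Figure D4:**
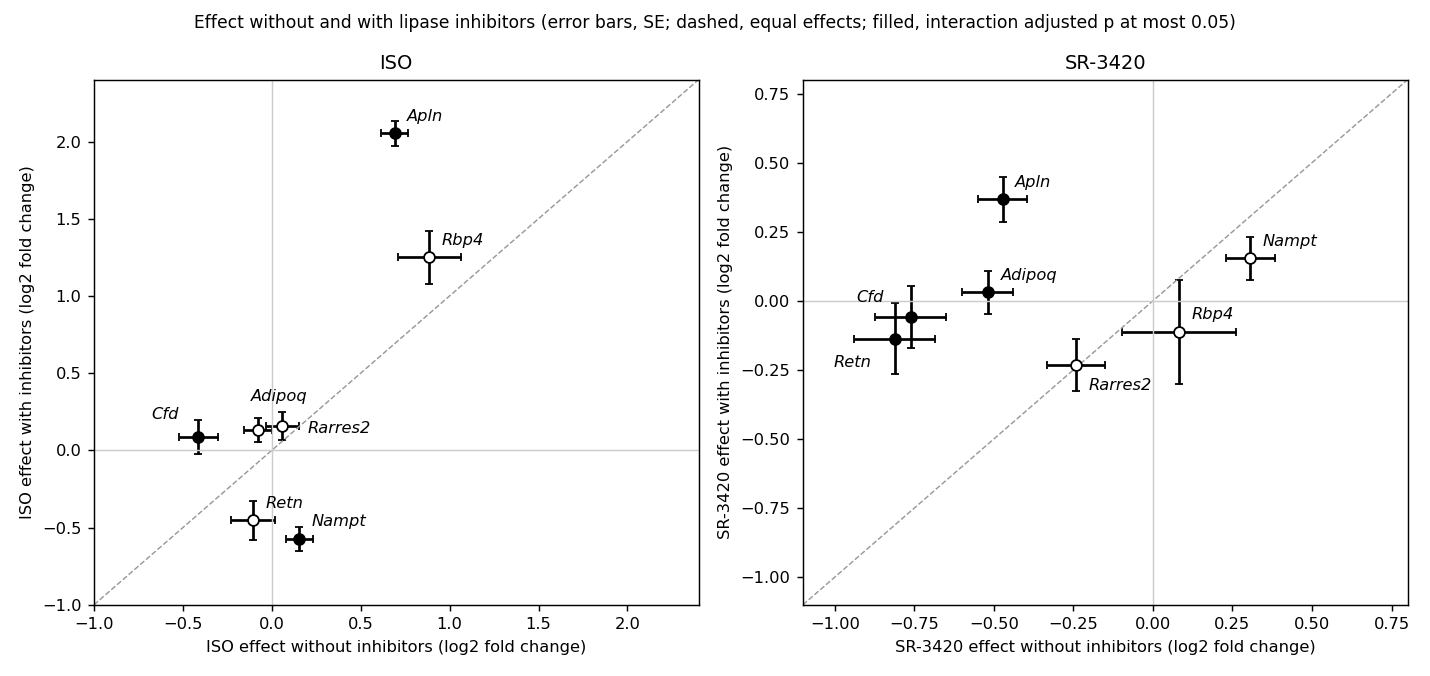
Effect of ISO (left) and SR-3420 (right) on each gene with inhibitors (y axis, log2 fold change) against that without (x axis, log2 fold change); error bars, SE; dashed line, equal effects; filled, interaction with adjusted p at most 0.05. Apln lies above the line in both panels, Nampt lies below it for ISO (-0.73), and Adipoq, Cfd and Retn lie left of 0 and near 0 on the y axis for SR-3420.

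Read together as a share of each library, the 8 genes took 0.819% ± 0.112 of the counts in Vehicle (SD, n = 3), 0.592% ± 0.0199 in ISO and 0.504% ± 0.0189 in SR-3420. With the inhibitors the share was 0.699% ± 0.0050 for Vehicle, 0.655% ± 0.0489 for ISO and 0.646% ± 0.0931 for SR-3420. The Lipase Inh. + SR-3420 libraries held 0.745%, 0.560% and 0.634%, and the lowest of these, replicate 2, is the one in which Lars2 took 18.3% of the total that the share divides by. This share is almost that of Adipoq and Cfd alone, uses no scaling factor and was not tested.

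Across the 18 samples, the genes fell into patterns that are given here as descriptions, since the points share the 6 treatments. Adipoq varied with Cfd (Pearson r of log2 CPM 0.82), Rarres2 (0.72) and Retn (0.71), and Rbp4 with Apln (0.82). These patterns were not separate, since Rarres2 also varied with Apln (0.61) and Rbp4 (0.60). Nampt ran opposite to Cfd (-0.58), Apln (-0.57), Rbp4 (-0.54), Rarres2 (-0.51) and Adipoq (-0.44), but not to Retn (0.0092). Among the 9410 candidate genes, whose log2 CPM averaged 3 or more, the genes most like Adipoq were Bcat2 (0.94), Polr2g (0.93) and Qdpr (0.93). Those most like Cfd were Unc50 (0.95), Mesdc2 (0.93) and Tm9sf1 (0.92), and those most like Retn were Tmem189 (0.91), Ces1d (0.87) and Retsat (0.87). Rbp4 was most like Insig2 (0.96), Gpr153 (0.94) and Slc31a1 (0.94), and Apln most like Egln1 (0.97), a sensor of oxygen, Glrx5 (0.96) and Kcnk3 (0.95). Nampt resembled Parp9 (0.96), which belongs to the family of ADP-ribosyltransferases, Dlc1 (0.96) and Ppip5k1 (0.96). For Rarres2 the nearest were Mrpl54 (0.86), Med28 (0.86) and Rpn1 (0.84).

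Genes around the adipokines were counted from lists. Of 14 receptors and binding partners, 6 were tested, and the direct receptors for leptin and apelin were nearly absent (Lepr and Aplnr at 2 counts or fewer in any library). Cmklr1, the chemerin receptor, lay between 0.147 and 2.07 CPM. At this low level it was called lower with SR-3420 (-1.62 ± 0.53, edgeR adjusted p = 0.0147) and not with ISO (-0.78 ± 0.50, adjusted p = 0.202). Adipor2, an adiponectin receptor, was abundant and higher with each stimulus: 1814 ± 39.8 CPM in Vehicle (SD, n = 3), 2459 ± 62.2 in ISO and 2286 ± 105 in SR-3420, and with the inhibitors 1673 ± 81.6, 2890.5 ± 7.53 and 2231 ± 83.3. ISO raised Adipor2 by 0.44 ± 0.06 (edgeR adjusted p = 4.04e-06) and, with inhibitors, by 0.79 ± 0.06 (adjusted p = 5.12e-10), an interaction of 0.35 ± 0.09 (adjusted p = 0.0041). Under total-count scaling the values without inhibitors were no longer called, at 0.13 for ISO (adjusted p = 0.175) and 0.17 for SR-3420 (adjusted p = 0.0859). Adipor1, the other adiponectin receptor, was lower with SR-3420 (-0.22 ± 0.06, adjusted p = 0.0061) and gave -0.03 ± 0.06 with ISO (adjusted p = 0.711; -0.34, adjusted p = 0.0015 under total-count scaling). Appl1, the adaptor of these receptors, had an interaction with ISO of -0.33 ± 0.10 (adjusted p = 0.0133; 0.139 under total-count scaling). In all, 3 of the 6 were higher and 1 lower with ISO (0 and 2 under total-count scaling), 2 and 2 with SR-3420 (0 and 3), and 1 and 2 in the ISO interaction (1 and 0). Of all genes tested, 26.8% were higher and 25.0% lower with ISO (12.3% and 49.4% under total-count scaling), and 26.0% and 25.4% with SR-3420 (16% and 35.9%). The ISO interaction was past the threshold for 31.4% of all genes, 14.9% upward and 16.6% downward. On the log2 scale the median change of the 6 was 0.08 (ISO) and -0.0034 (SR-3420), against -0.02 over all genes in both.

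The 8 genes for adiponectin folding and release were all tested. With ISO, 4 were higher and 1 lower (2 and 4 under total-count scaling), and with SR-3420 3 and 1 (3 and 3). All genes also moved toward lower calls under total-count scaling, from 26.8% higher and 25.0% lower to 12.3% and 49.4% with ISO, and from 26.0% and 25.4% to 16% and 35.9% with SR-3420. The ISO interaction was past the threshold for 1 upward and 3 downward, where 31.4% of all genes were, 14.9% upward and 16.6% downward. On the log2 scale the 8 had a median change of 0.10 (ISO) and 0.02 (SR-3420), beside -0.02 for all genes. Ero1l, the oxidoreductase that helps adiponectin oligomers leave the endoplasmic reticulum, stood at 254 ± 47.1 CPM in Vehicle, 889 ± 51.7 in ISO and 895 ± 41.0 in SR-3420, and at 219 ± 21.8, 326 ± 36.0 and 281 ± 58.97 with the inhibitors (SD, n = 3). Its ISO interaction was -1.23 ± 0.18 (edgeR adjusted p = 1.37e-05). Sel1l, a part of the degradation machinery there, had one of -0.67 ± 0.10 (adjusted p = 1.79e-05). Adipoq itself gave -0.08 ± 0.08 with ISO (adjusted p = 0.428) and -0.52 ± 0.08 with SR-3420 (adjusted p = 1.35e-05). Under total-count scaling Adipoq was also called lower with ISO, as given above.

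Around Nampt, 11 of 12 genes of NAD metabolism were tested. With ISO 4 were higher and 3 lower (2 and 5 under total-count scaling), with SR-3420 3 and 6 (0 and 6), and in the ISO interaction 4 and 1. The share of all genes called was 51.8% with ISO (12.3% higher and 49.4% lower under total-count scaling), 51.4% with SR-3420 (16% and 35.9%) and 31.4% in the ISO interaction. The 11 had median log2 changes of -0.04 (ISO) and -0.29 (SR-3420), against -0.02 over all genes in both. Sirt1, an NAD-dependent deacetylase, was, like Nampt, lowest in Lipase Inh. + ISO, at 120 ± 5.88 CPM in Vehicle, 129 ± 3.59 in ISO, 161 ± 9.51 in SR-3420 and 82.4 ± 3.30 in Lipase Inh. + ISO, with an ISO interaction of -0.67 ± 0.14 (edgeR adjusted p = 0.000678). Nnmt, which spends nicotinamide, went the other way, with an ISO interaction of 0.90 ± 0.22 (adjusted p = 0.0030) and a level of 75.7 ± 2.52 CPM in Lipase Inh. + ISO against 23.3 ± 4.35 in Lipase Inh. + Vehicle (SD, n = 3).

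Around Rbp4, 9 of 13 genes of retinoid handling were tested, and Ttr, the plasma partner of Rbp4, held 0 counts. With ISO 2 were higher and 3 lower (2 and 4 under total-count scaling), with SR-3420 2 and 3, and in the ISO interaction 4 and 1 (4 and 0). The 5 of 9 called with each stimulus stand beside 51.8% of all genes with ISO and 51.4% with SR-3420. Under total-count scaling 12.3% of all genes were higher and 49.4% lower with ISO. In the ISO interaction 31.4% of all genes were called, 14.9% upward and 16.6% downward. The 9 had median log2 changes of -0.36 (ISO) and 0.10 (SR-3420), against -0.02 over all genes. Rara, a retinoic acid receptor, fell with ISO (-0.54 ± 0.09, edgeR adjusted p = 2.82e-05) and rose with ISO in inhibitor-treated cells (0.52 ± 0.09, adjusted p = 2.03e-05), an interaction of 1.06 ± 0.12 (adjusted p = 8.05e-07). Rdh11, a retinol dehydrogenase, rose by 0.79 ± 0.10 (adjusted p = 1.54e-06) and by 1.33 ± 0.10 (adjusted p = 2.02e-10), an interaction of 0.54 ± 0.14 (adjusted p = 0.0062).

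Of the alternative complement pathway around Cfd, 6 of the 9 genes in the table were tested. With ISO 1 was higher (Cfi) and 3 lower (Cfb, Cfp and Cr1l), with SR-3420 2 were higher (Cfi and Masp1) and 2 lower (Cfp and Cr1l), or 1 and 3 under total-count scaling, and none was past the threshold in the ISO interaction. Of all genes, 51.8% were called with ISO, 51.4% with SR-3420 and 31.4% in the ISO interaction. Median log2 changes of the 6 were -0.06 (ISO) and -0.12 (SR-3420), against -0.02 over all genes. The complement genes named here, C1qtnf1 and Fam132a were picked after their values were seen. Of the relatives of adiponectin and resistin, 11 were in the table and 4 were tested. With ISO 0 were higher and 1 lower (all genes 26.8% and 25.0%), and with SR-3420 0 and 2 (26.0% and 25.4%). C1qtnf1 fell with ISO (-1.13 ± 0.13, edgeR adjusted p = 3.15e-07) and with SR-3420 (-0.66 ± 0.13, adjusted p = 0.000168). Fam132a was also lower with SR-3420 (-0.40 ± 0.17, edgeR adjusted p = 0.0488, or 0.0504 with RLE factors). Median log2 changes of the 4 were 0.05 (ISO) and -0.47 (SR-3420), against -0.02 over all genes. The resistin-like genes Retnlb and Retnlg held 0 counts.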

How the data were processed

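The authors prepared TruSeq libraries, aligned reads to mm9 with STAR 2.4.2a, made tag directories with HOMER, keeping 1 read per position and length, and used iRNA-seq to count the reads of RefSeq genes. They deposited raw counts, neither normalised nor filtered, for 20295 genes and 18 samples, with 0 columns of other samples. The sources do not say whether counting used strand. Table coordinates start from 0 and are printed from 1.

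The deposited counts went into edgeR 4.0.16 (R 4.3.3): filterByExpr (minimum count 10, minimum total 15), TMM factors, 1 quasi-likelihood model over 18 samples, 8 contrasts, and Benjamini-Hochberg adjustment over 12156 genes. SE is the log2 fold change over the square root of its F statistic, and 95% intervals are that SE times the t quantile of the residual degrees of freedom. The fit was tested on simulated data. Alternatives were DESeq2 1.42.0, RLE factors, total counts only, other filters, only the groups compared, the replicate number as a block, and single samples left out. The Lep floor of 3 counts covers counting error only.

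The 8 genes, the gene lists and the tests were chosen with earlier results of these data known. From each list, the 2 genes with the smallest adjusted p in the ISO interaction and the direct receptors were named. A gene that this rule names is not reported here. Likeness was measured on log2 CPM (prior count 2).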

Additional observations from a re-analysis of the deposited data

Results flagged for a closer look

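These results were picked out because the effect of a stimulus differed with and without the lipase inhibitors by a test of the difference itself. For ISO the differences on the log2 scale (with minus without inhibitors) were 1.36 for Apln, 0.50 for Cfd and -0.73 for Nampt (edgeR adjusted p = 3.80e-09, 0.0189 and 2.39e-05). For SR-3420 they were 0.84 for Apln, 0.70 for Cfd, 0.68 for Retn and 0.55 for Adipoq (adjusted p = 1.05e-05, 0.0020, 0.0076 and 0.000922). Of these 7, the ISO value for Cfd was the only one that lost its call when single samples were left out. The lower starting level of Apln in Lipase Inh. + Vehicle enters both Apln values, since both interactions use those samples. The SR-3420 value of Adipoq likewise takes in its level in Lipase Inh. + Vehicle, which was -0.24 against Vehicle and not called (edgeR adjusted p = 0.201).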

How the results depend on the processing

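Of 392 values from alternatives other than leaving out samples, 375 kept direction and side of the threshold, and of 420 values with a single sample left out, 385 did. No gene past the threshold changed sign. Total counts only raised the number of changed genes with ISO to 6. With SR-3420 the split became 0 higher and 5 lower, and between ISO and SR-3420 4 higher and 1 lower. Total counts only also lowered the number with SR-3420 in inhibitor-treated cells to 0, as did a fit of only the groups compared. With single samples left out that last number ran from 0 to 1, being 0 without Lipase Inh. + Vehicle replicate 1 or 3.

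Total counts only reversed some values: with ISO, Nampt (-0.15) and Rarres2 (-0.25, then called, adjusted p = 0.0321). With SR-3420 it reversed Rbp4 (-0.0769). In inhibitor-treated cells it reversed Adipoq (-0.0929), Cfd (-0.14) and Rarres2 (-0.0679) with ISO and Adipoq (-0.0859) with SR-3420. The SR-3420 interaction of Rarres2 reversed to -0.0019 with no filter and -0.0025 with the replicate block. The shift of the reference under total counts is part of that scaling, and the cause of the others was not tested.

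With single samples left out, values that crossed 0 ran as follows. With ISO, Adipoq ran from -0.15 to 0.0115, Retn from -0.26 to 0.0184 and Rarres2 from -0.0158 to 0.13. With the inhibitors alone, Cfd ran from -0.28 to 0.000788, Rbp4 from -0.28 to 0.14, Nampt from -0.0900 to 0.0276 and Retn from -0.24 to 0.0365. With SR-3420, Rbp4 ran from -0.16 to 0.27. In the SR-3420 interaction, Rarres2 ran from -0.0659 to 0.13 and Rbp4 from -0.38 to 0.0443. With SR-3420 in inhibitor-treated cells, Adipoq ran from -0.0188 to 0.0874 and Cfd from -0.15 to 0.0047.

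Samples with the same replicate number did not deviate together in every pair: r ran from -0.11 to 0.28 and was over 0.1 in 28 of 45 pairs. The mean r was -0.01 for replicate number 1, 0.15 for number 2 and 0.19 for number 3. Of the 18 samples, 12 correlated best with their own number. A fit with the replicate block left every count of changed genes as it was (3 with ISO, 6 with SR-3420), and it changed no call. Depth limited Lep, at 9 counts or fewer.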

Other observations

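Among other secreted proteins of adipocytes, 13 of 17 were tested. With ISO 8 were higher and 2 lower (2 and 2 under total-count scaling), and with SR-3420 6 and 3 (4 and 4). Of all genes, 26.8% were higher and 25.0% lower with ISO (12.3% and 49.4%) and 26.0% and 25.4% with SR-3420 (16% and 35.9%). The 13 had median log2 changes of 0.46 (ISO) and 0.29 (SR-3420), against -0.02 over all genes in both. Angptl4, an inhibitor of lipoprotein lipase, stood at 519 ± 99.0 CPM in Vehicle, 391 ± 85.1 in ISO, 1361 ± 88.9 in SR-3420 and 199.97 ± 29.0 in Lipase Inh. + ISO (SD, n = 3), with an ISO interaction of -1.20 ± 0.20 (edgeR adjusted p = 8.10e-05). That interaction takes Lipase Inh. + ISO against Lipase Inh. + Vehicle, not against Vehicle.

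All 10 transcription factors listed for their known links to adipokine promoters were tested. With ISO 5 were higher and 2 lower (5 and 4 under total-count scaling), with SR-3420 6 and 3 (5 and 3), and in the ISO interaction 2 were upward and 5 downward (2 and 3). Of all genes, 51.8% were called with ISO, 51.4% with SR-3420 and 31.4% in the ISO interaction. The 10 had median log2 changes of 0.30 (ISO) and 0.33 (SR-3420). Hif1a, the oxygen-regulated factor, stood at 146 ± 6.95 CPM in Vehicle, 383 ± 58.6 in ISO and 325 ± 31.4 in SR-3420, and at 173 ± 5.22 in Lipase Inh. + ISO (SD, n = 3). On the log2 scale ISO gave 1.39 ± 0.10 without inhibitors and 0.12 ± 0.09 with them, an ISO interaction of -1.27 ± 0.13 (edgeR adjusted p = 2.12e-07). Clock, a circadian factor, had an ISO interaction of -0.60 ± 0.10 (adjusted p = 0.000125).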
